A study of Homo sapiens with 6 samples.

Results

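The MYC, MAX and MXD network is a family of transcription factors that form pairs through a shared helix-loop-helix and leucine zipper and bind short DNA elements called E-boxes. The genes were MYC, MYCN, MAX, MXD1, MXD3, MXD4, MXI1, MNT, MLX and MLXIP, chosen by name from the gene annotation of the array and not by their values. Of these 10 genes, 9 had a row of their own among the 21921 genes with a single symbol in the table. The row of MXD4 is shared with the microRNA gene MIR4800, which this row cannot separate from it, so that its values are described apart and are in no count of network genes that rose or fell. Each of the 9 genes had 1 row, and no choice between rows was needed.

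RNA of INA-6, an IL-6 dependent line of human multiple myeloma (MM), was hybridised to 6 Affymetrix arrays. For 3 arrays the cells had been grown with UNC1999, which blocks EZH2, the enzyme behind the repressive H3K27me3 mark, and for 3 with UNC2400, its inactive relative. Dose and time were the same in both groups, 1 μM over 120 hours with fresh compound at 72 hours. Controls are taken from the labels (UNC2400), although the text of the study speaks of DMSO. INA-6 is a single line, all cultures contained IL-6, and although the labels describe the replicates as biological, nothing says how far they were grown apart, so that p-values measure the spread between these arrays.

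MYC proteins pair with MAX and activate genes of growth and metabolism. MXD1, MXD3, MXD4, MXI1 and MNT compete for the same partner and, through the SIN3 corepressor with its histone deacetylases, repress genes that carry E-boxes. MLX is a second hub that pairs with MLXIP (MondoA), a factor that responds to glucose derivatives, and with some of the MXD proteins. MYC is a central oncogene of MM, where its locus is often rearranged.

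The DNA element itself can be shown at the promoters of the family. In the RefSeq windows (build GRCh38.p14) that run from 250 bases before to 50 bases after a transcription start, 9 of the 10 genes (all but MYC, and here with MXD4) had 1 or more windows, 12 in all. The canonical E-box CACGTG, which reads the same on both strands, was present in the windows of 3 genes, MXD4, MNT and MLX. Of all 27305 genes with such windows 8.77% hold it, and of all 35116 windows 7.26%. The variant CACGCG, searched on both strands (CGCGTG on the other), was present for 2 genes, MXD3 and MXI1, against 13.5% of all genes and 11.4% of all windows. No gene had both motifs, so that no matches overlapped. The stretches around them are shown because they hold the letters of the E-box, the element this family is known for, and they are given in the direction of the gene, with the motif in capitals.
MXD4, chr4:2262315-2262359, minus strand: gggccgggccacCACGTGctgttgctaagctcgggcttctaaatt
MNT, chr17:2401221-2401280, minus strand: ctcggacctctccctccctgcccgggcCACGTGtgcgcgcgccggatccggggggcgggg
MLX, chr17:42567023-42567082, plus strand: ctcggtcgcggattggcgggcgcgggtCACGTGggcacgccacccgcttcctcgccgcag
MXD3, chr5:177312723-177312771, minus strand: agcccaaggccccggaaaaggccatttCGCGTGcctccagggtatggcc
MXI1, chr10:110225977-110226025, plus strand: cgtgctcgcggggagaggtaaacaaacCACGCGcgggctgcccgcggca
The motif starts 238 bases before the transcription start in MXD4, 193 bases before it in MNT and 50 bases before it in MLX. In MXD3 and in 1 of the 3 windows of MXI1 it starts at base 9 after the start. Of the genes with CACGTG, the row shared by MXD4 rose with UNC1999, while MNT and MLX did not pass the test. Of the genes with CACGCG, MXI1 fell and MXD3 did not pass. Of the 4 genes with a window and neither motif, MLXIP fell and MYCN, MAX and MXD1 did not pass. A match of these letters is a description of the sequence, and binding was not measured.

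Of the 9 genes, 3 were lower with UNC1999 (MYC, MXI1 and MLXIP), none was higher and 6 did not pass, in limma with Benjamini-Hochberg adjustment over all 65529 rows and a threshold of 0.05. Across all 21921 genes 16.5% passed by the same test, 7.32% lower and 9.16% higher, and across all rows 9.39%, 4.4% lower and 4.99% higher. Among the 10577 genes whose mean level lies within the range of the 9 network genes 26.2% passed, 12.2% lower and 14.0% higher. Counted in either direction, 3 of 9 lies near that background. All 3 were lower, and 3 of 9 lies above the 12.2% of that direction. With only 9 genes this was not tested. The median log2 difference was -0.03 over the 9 genes and 0.01 over all genes. The median size of the difference, whatever its sign, was 0.13 over the 9 genes against 0.05 over all genes. All genes include many dimmer than any of the 9, so these medians are not matched for level. All levels and differences given here are on the log2 scale of the array, on which levels of different genes cannot be set against each other.

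**Figure D1:**
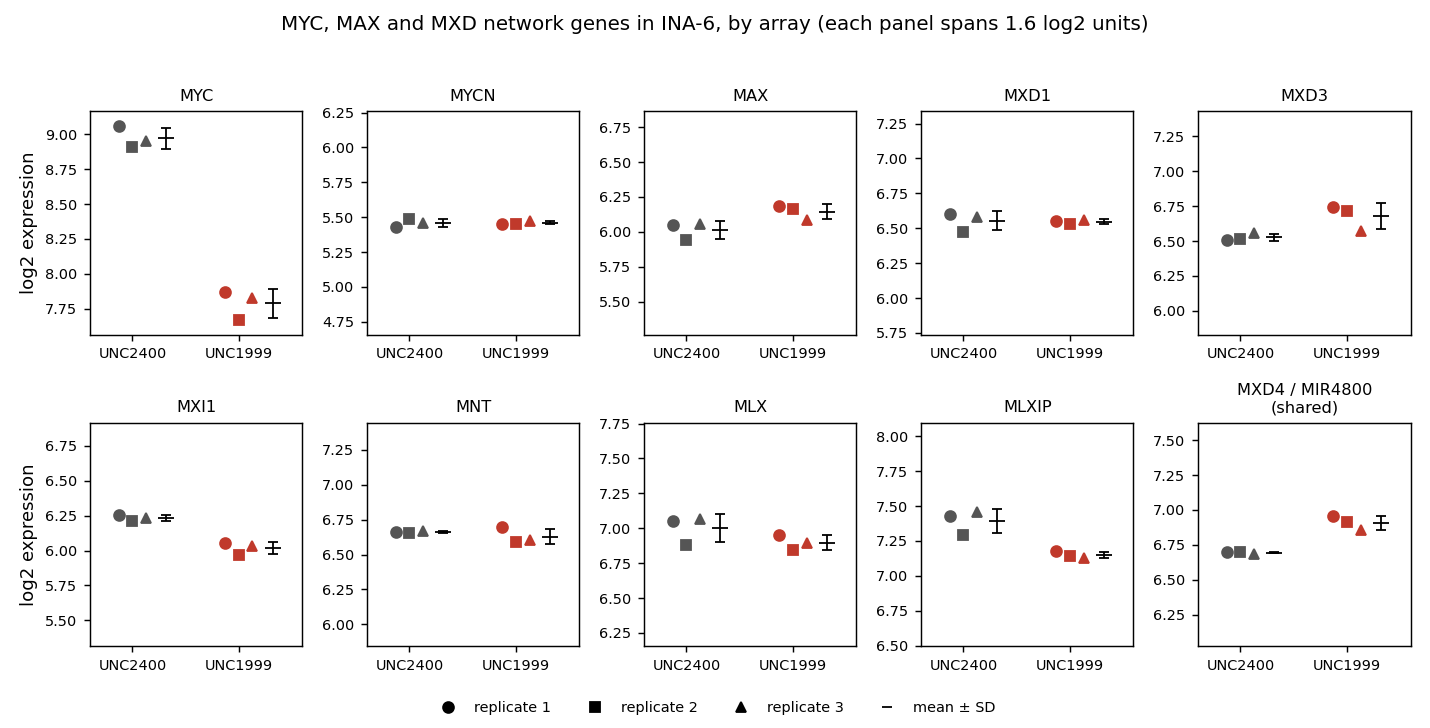
Log2 expression of the 9 network genes and of the row that MXD4 shares with MIR4800, by array, with the mean ± SD of each group (n = 3) beside the points; every panel spans the same height in log2 units, and the symbols mark the replicate numbers. MYC is at 8.91 to 9.06 with UNC2400 and at 7.67 to 7.87 with UNC1999, whereas the groups of MYCN, MXD1, MNT and MLX overlap.

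MYC was the member with the largest difference. It was at 9.06, 8.91 and 8.95 in the 3 UNC2400 arrays and at 7.87, 7.67 and 7.83 in the 3 UNC1999 arrays. Every UNC1999 array was below every control array, by more than the range within either group. The log2 difference was -1.18 ± 0.06 (SE, 95% interval -1.34 to -1.02), a 2.27-fold fall (limma, adjusted p = 0.00104). With any 1 array left out it stayed between -1.22 and -1.12, and the adjusted p was at most 0.00669. By size of the fall MYC ranked 39 among the 21921 genes, and it was the only network gene that also met the thresholds of the study (p no higher than 0.02 before adjustment, with a change of 1.5-fold or more), which 2.38% of all genes met.

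The 5 genes whose pattern lay closest to that of MYC, by the distance between the values of the 6 arrays after each gene was centred on its own mean, were SLC31A1, PLEKHA8, POU2AF1, KIF21B and IRF4, in that order, among 15156 genes brighter than the median row. SLC31A1, a copper importer, had a mean of 9.81 ± 0.07 in the controls and of 8.61 ± 0.07 in the UNC1999 arrays (SD, n = 3), at a distance of 0.07 log2 units from MYC. POU2AF1, a coactivator of B cell transcription, was at 9.41, 9.24 and 9.25 with UNC2400 and at 8.29, 7.99 and 8.13 with UNC1999, at a distance of 0.10. As in MYC, replicate 1 was the highest and replicate 2 the lowest of its UNC1999 arrays. The choice by closeness to MYC over these same arrays favours such a shared order, which is no separate result. IRF4, a factor on which MM cells depend, was at 0.14. POU2AF1 and IRF4 are also in the list of plasma cell markers described further on.

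MYCN, the paralogue of MYC known from neuroblastoma, did not differ detectably. Whether MYCN was above background on these arrays was not tested. Its arrays read 5.43, 5.49 and 5.46 with UNC2400 and 5.45, 5.45 and 5.47 with UNC1999, so that the groups overlapped. The 95% interval of the difference ran from -0.05 to 0.05 on the log2 scale (limma, adjusted p = 0.991). The sign of this value turned with quantile (-0.02) and cyclic loess (-0.02) normalization.

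MAX is the obligate partner of the MYC proteins and a partner of the MXD proteins. Its arrays were at 6.05, 5.94 and 6.06 with UNC2400 and at 6.19, 6.16 and 6.08 with UNC1999. The groups did not overlap, but UNC1999 replicate 3 lay only just above the highest control array. Groups that did not overlap were found for 5 of the 9 network genes, 3 lower and 2 higher, and for 37.8% of all genes, 13.7% lower and 24.1% higher. The difference of 0.13 ± 0.04 (SE, interval 0.02 to 0.23) did not pass after adjustment (limma, adjusted p = 0.145), nor with any array left out (adjusted p from 0.0931 to 0.341). The interval of the MYC difference lies wholly below that of MAX.

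Among the MXD proteins the values went in different directions. MXI1 (also called MXD2), an antagonist of MYC, was at 6.26, 6.21 and 6.23 with UNC2400 and at 6.05, 5.97 and 6.04 with UNC1999. Every UNC1999 array was below every control array. The difference was -0.22 ± 0.03 (SE, interval -0.29 to -0.15), a 1.16-fold fall (limma, adjusted p = 0.00969), and it passed with each of the 6 arrays left out in turn (adjusted p up to 0.0408). In size 3290 of the 21921 genes differed by more.

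MXD3, an MXD protein expressed in dividing cells, was at 6.51, 6.52 and 6.56 with UNC2400 and at 6.75, 6.72 and 6.57 with UNC1999. Replicates 1 and 2 of UNC1999 stood clearly above the controls, and replicate 3 was only just above the highest of them. The difference of 0.15 ± 0.05 (SE, interval 0.03 to 0.27) did not pass (limma, adjusted p = 0.137). Without UNC1999 replicate 3 it was 0.21 and passed (adjusted p = 0.0129). That array also stood apart from the other UNC1999 arrays across all rows.

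MXD1, the member induced during differentiation of blood cells, was at 6.60, 6.47 and 6.58 with UNC2400 and at 6.55, 6.53 and 6.56 with UNC1999. All 3 UNC1999 arrays fell inside the range of the controls. The interval of the difference ran from -0.10 to 0.09 (limma, adjusted p = 0.971). The row shared by MXD4 and MIR4800 rose. It was at 6.70, 6.70 and 6.69 with UNC2400 and at 6.96, 6.92 and 6.86 with UNC1999, a difference of 0.21 ± 0.03 (SE, interval 0.15 to 0.28; limma, adjusted p = 0.00935). This rise passed with each array left out (adjusted p up to 0.0486 without UNC1999 replicate 2). The row does not tell whether the transcript of MXD4, that of MIR4800 or both were higher.

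MNT, a broadly expressed MAX partner that represses E-box genes, was at 6.66, 6.65 and 6.67 with UNC2400 and at 6.69, 6.59 and 6.61 with UNC1999. Its UNC1999 arrays lay on both sides of the controls. The interval of the difference was -0.11 to 0.05 (limma, adjusted p = 0.688).

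**Figure D2:**
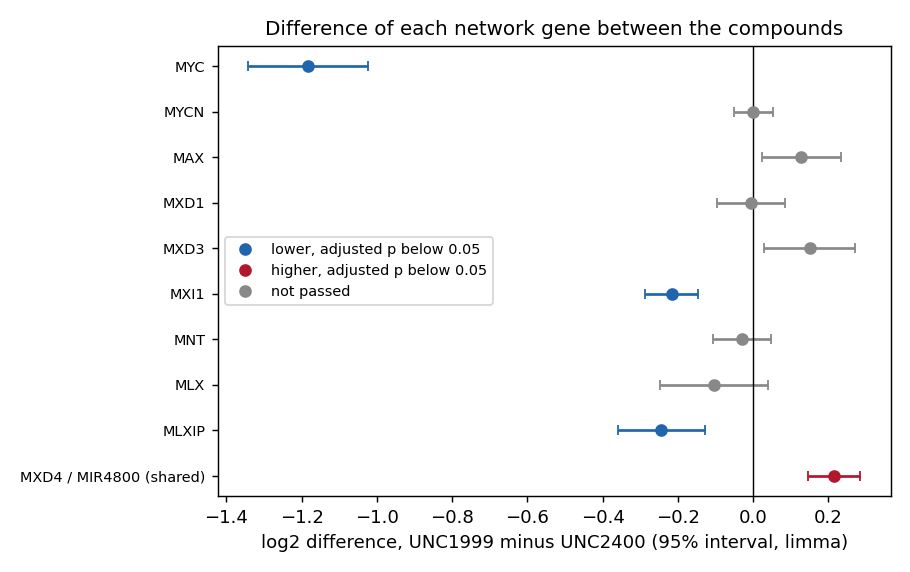
Log2 difference between UNC1999 and UNC2400 for each network gene, with its 95% interval from limma on 3 arrays per group; blue marks genes that were lower, red marks higher and grey marks genes that did not pass an adjusted p of 0.05. The interval of MYC (-1.34 to -1.02) lies far from those of the other 9 rows, which all fall between -0.36 and 0.28.

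In the MLX branch MLXIP fell and MLX did not pass. MLXIP was at 7.43, 7.29 and 7.46 with UNC2400 and at 7.18, 7.14 and 7.13 with UNC1999. The groups did not overlap, and UNC2400 replicate 2 was the control array nearest to the UNC1999 arrays. The difference was -0.24 ± 0.05 (SE, interval -0.36 to -0.13), a 1.18-fold fall (limma, adjusted p = 0.0307). With 1 array left out, the call held without UNC2400 replicate 2 (limma, adjusted p = 0.00685) and was lost without any 1 of the other 5 arrays (adjusted p from 0.0730 to 0.112). MLX was at 7.06, 6.88 and 7.06 with UNC2400 and at 6.95, 6.84 and 6.89 with UNC1999. Here UNC2400 replicate 2 was below 2 of the UNC1999 arrays, and the groups overlapped. The interval of -0.25 to 0.04 includes 0 (limma, adjusted p = 0.393).

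**Figure D3:**
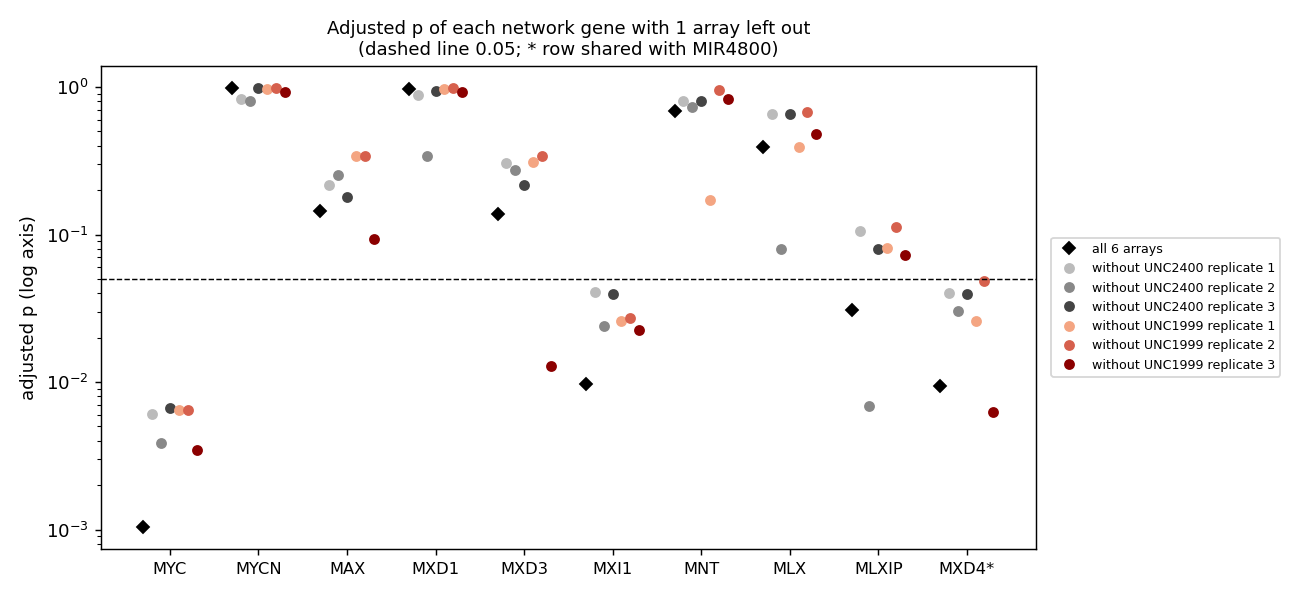
Adjusted p (limma, log axis) of each network gene with all 6 arrays (diamonds) and with 1 array left out (circles, coloured by the array removed); the dashed line is the threshold of 0.05, and the star marks the row shared with MIR4800. MYC, MXI1 and the MXD4 row stay below the line throughout, MLXIP crosses it in 5 of 6 cases, and MXD3 crosses it without UNC1999 replicate 3 (0.0129).

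The counts in the lists that follow stand beside 7.32% lower and 9.16% higher of all genes, and 12.2% and 14.0% of the genes in the level range of the network genes. That range was set by the network genes and not by the lists, and some listed genes are brighter or dimmer than it. The other partners of MAX and MLX did not pass. MYCL, the third MYC paralogue, went from 6.13 to 6.21 (interval of the difference -0.06 to 0.22). MGA, a large MAX partner that belongs to a Polycomb complex, went from 7.32 to 7.48 (interval -0.04 to 0.36). MLXIPL (ChREBP), the relative of MLXIP known from liver, went from 5.44 to 5.47 (interval -0.05 to 0.10). For MLXIPL too, a level above background was not tested. All 3 means were higher with UNC1999, and limma gave adjusted p of 0.524, 0.347 and 0.745. Of the other 9 factors with the same type of domain that bind E-boxes, 2 rose, 1 fell and 6 did not pass. USF1 rose 1.55-fold (limma, adjusted p = 0.00699) and TFE3, a factor of lysosomal genes, 1.16-fold (adjusted p = 0.0278). TFE3 was lost without UNC1999 replicate 1 or any of the UNC2400 arrays (up to 0.0897). SREBF2, the regulator of cholesterol synthesis, fell 1.42-fold (limma, adjusted p = 0.0107). The count of E-box factors that were lower was 2 without UNC1999 replicate 1 or 3.

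Of 16 subunits of the SIN3 and NCOR corepressors, through which the MXD proteins and MNT act, 4 rose, none fell and 12 did not pass, beside 9.16% higher of all genes and 14.0% of those in the level range of the network genes. Their median log2 difference was 0.09, against 0.01 over all genes, which were not matched to them for level. SIN3A, the scaffold that the MXD proteins bind, was at 7.61, 7.47 and 7.47 with UNC2400 and at 8.01, 8.01 and 8.01 with UNC1999. This 1.41-fold rise (limma, adjusted p = 0.00258) was seen in all 3 UNC1999 arrays alike. The deacetylase HDAC1 rose 1.46-fold (adjusted p = 0.00517) and the subunit SAP18 1.17-fold (adjusted p = 0.00261). Of 13 subunits of the Polycomb complex PRC1.6, which contains MGA and MAX, 3 were higher (HDAC1, RING1 and TFDP1), none was lower and 10 did not pass (median 0.08). RING1, a ubiquitin ligase of histone H2A, and TFDP1, the partner of E2F6, each rose 1.14-fold (limma, adjusted p = 0.0138 and 0.0150). RING1 missed the threshold without UNC1999 replicate 2 (0.0549) and TFDP1 without UNC1999 replicate 1 or UNC2400 replicate 3 (up to 0.0558).

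Of 17 coactivators and cofactors of MYC, 6 rose, none fell and 11 did not pass, with a median of 0.15, beside 9.16% higher of all genes and 14.0% of those in the level range of the network genes. The count fell to 2 without UNC1999 replicate 2, UNC2400 replicate 1 or UNC2400 replicate 3 and to 3 without UNC2400 replicate 2. The acetyltransferases CREBBP and KAT5 (TIP60) rose 1.48-fold and 1.25-fold (limma, adjusted p = 0.00489 and 0.00629). HCFC1, a cofactor that binds MYC directly, rose 1.21-fold (limma, adjusted p = 0.0204) and was lost without UNC1999 replicate 1 or 2 or UNC2400 replicate 1 or 3 (up to 0.0793).

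Of 20 genes that set the stability of the MYC protein, 2 rose, 2 fell and 16 did not pass, with a median of 0.09. The ubiquitin ligase subunit FBXW7, which marks MYC for degradation, was at 6.25, 6.12 and 6.23 with UNC2400 and at 5.91, 5.82 and 5.94 with UNC1999, a 1.24-fold fall (limma, adjusted p = 0.0150). It missed the threshold without UNC1999 replicate 1 or 2 or UNC2400 replicate 1 or 3 (adjusted p up to 0.0567). The deubiquitinase USP7 fell 1.38-fold (adjusted p = 0.00521). The mitotic kinase PLK1 rose 1.39-fold (adjusted p = 0.00471) and the phosphatase subunit PPP2R1A 1.10-fold (adjusted p = 0.0446). PPP2R1A missed the threshold in 7 of the 11 alternatives, with any array other than UNC2400 replicate 1 left out (adjusted p up to 0.134), with dim rows left out and with trend and robust. These are transcript levels, and protein was not measured on these arrays.

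**Figure D4:**
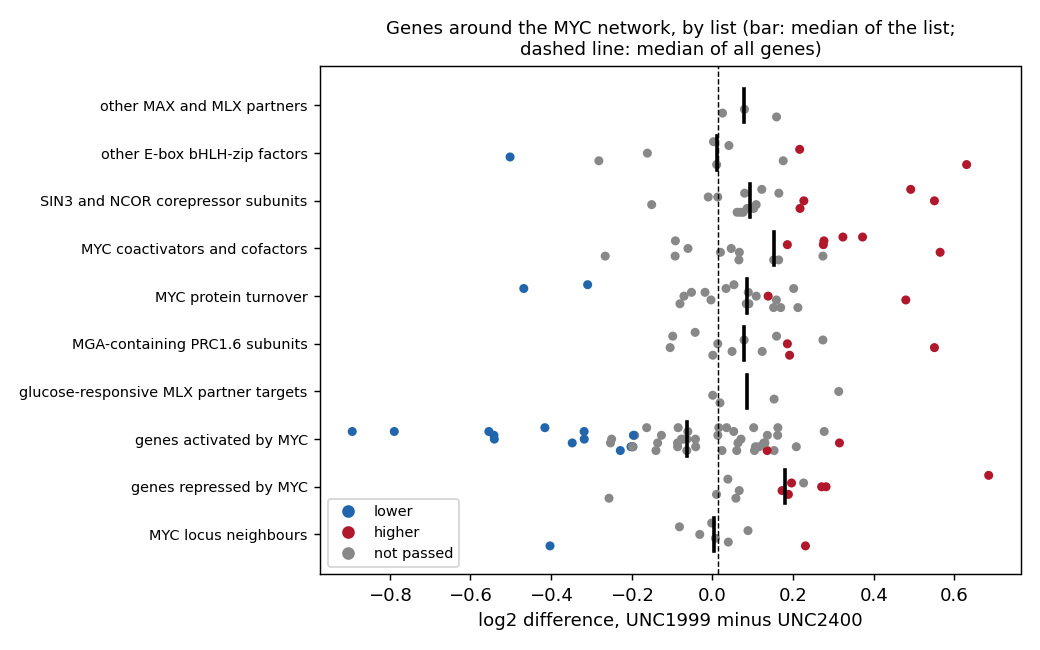
Log2 difference between UNC1999 and UNC2400 of single genes in 10 lists around the MYC network (points, coloured by the limma call at an adjusted p of 0.05), with the median of each list as a bar and the median of all genes (0.01) as a dashed line. The genes known to be activated by MYC have 13 of 53 members lower and 2 higher. Genes known to be repressed by it have 6 of 12 higher and none lower. Beside these stand 7.32% lower and 9.16% higher of all genes, and 12.2% and 14.0% in the level range of the network genes.

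Genes known as direct targets that MYC activates numbered 53 on the array, of which 13 fell, 2 rose and 38 did not pass. The shares were 7.32% lower and 9.16% higher over all genes, and 12.2% and 14.0% over those in the level range of the network genes. Some members of this list are brighter than that range. The median log2 difference of the list was -0.06. The count of lower genes was 9 without UNC1999 replicate 2 or UNC2400 replicate 1. It was 10 with the replicate block and with trend and robust, and 17 with cyclic loess. The 3 lower members with the smallest p were POLR3D, a subunit of RNA polymerase III that fell 1.47-fold (limma, adjusted p = 0.00132), GART, an enzyme of purine synthesis that fell 1.45-fold (adjusted p = 0.00153), and MTHFD2, a mitochondrial folate enzyme that fell 1.73-fold (adjusted p = 0.00216). POLR3D read 7.14, 7.12 and 7.09 with UNC2400 and 6.58, 6.49 and 6.61 with UNC1999, with a wide gap between the groups. TYMS, an enzyme of thymidylate synthesis, rose 1.24-fold (adjusted p = 0.00928) and RANBP1, a nuclear transport factor, 1.10-fold (adjusted p = 0.0283). RANBP1 was lost under 9 of the 11 alternatives and held only without UNC2400 replicate 2 and with dim rows left out. The row of MIR17HG, the host gene of the miR-17-92 cluster, shared with 6 of its microRNAs, read 5.13 with UNC2400 and 5.05 with UNC1999 (interval of the difference -0.18 to 0.04; limma, adjusted p = 0.435).

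Of 12 genes known to be repressed by MYC, 6 rose, none fell and 6 did not pass, with a median of 0.18, beside 9.16% higher of all genes and 14.0% of those in the level range of the network genes. A single gene was lower without UNC2400 replicate 3, with cyclic loess and with dim rows left out. FTH1, the heavy chain of ferritin, rose 1.61-fold (limma, adjusted p = 0.0172), the cyclin-dependent kinase inhibitor CDKN1B 1.14-fold (adjusted p = 0.00802) and the chaperone CLU 1.15-fold (adjusted p = 0.0110). The call of FTH1 was lost without any 1 of the UNC2400 arrays (adjusted p up to 0.0603), that of CLU without UNC1999 replicate 2 (0.0546) and with the replicate block (0.0601). The count of 6 fell to 3 without UNC1999 replicate 1, UNC1999 replicate 2, UNC2400 replicate 1 or UNC2400 replicate 3, and to 2 without UNC2400 replicate 2. None of the 4 targets of the glucose-responsive MLX partners passed. TXNIP, the best known target of MLXIP, was at 6.97, 6.85 and 7.03 with UNC2400 and at 7.46, 7.40 and 6.92 with UNC1999. Replicate 3 of UNC1999 sat among the controls while replicates 1 and 2 were above them, so that the difference of 0.31 (interval -0.05 to 0.68; limma, adjusted p = 0.303) became 0.48 without that array (adjusted p = 0.0133). ARRDC4, KLF10 and PKLR had log2 differences of 0.02, 0.15 and 0.0009. The means of ARRDC4, 4.43 with UNC2400 and 4.45 with UNC1999, were below the median row (4.85), so that its small difference says little.

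Of 8 measured neighbours of MYC on chromosome 8, 1 was lower, 1 was higher and 6 did not pass. Only 4 of the 8 had a mean above the median row (4.85), and for the dimmer ones a missing call says little. TRIB1, a pseudokinase, fell 1.32-fold (limma, adjusted p = 0.0185), and ASAP1, a regulator of ARF proteins, rose 1.17-fold (adjusted p = 0.0272). TRIB1 was lost without UNC1999 replicate 1 or 2 or UNC2400 replicate 2 (up to 0.0785), and ASAP1 without any array other than UNC1999 replicate 3 (up to 0.0818). The row shared by PVT1, the long noncoding RNA next to MYC, and MIR1204 was at 6.11, 5.94 and 6.08 with UNC2400 and at 5.66, 5.67 and 5.64 with UNC1999. It was lower in all 3 arrays, by 0.39 ± 0.05 (SE; limma, adjusted p = 0.00795), a smaller fall than that of MYC, whose interval lies wholly below the interval of -0.51 to -0.27 found here.

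The labels call the cells mature plasma cells, and 10 of 11 plasma cell markers with a row of their own were above the median row (4.85) in the UNC2400 arrays. These 10 were lower with UNC1999. The other, CD38, read 4.83, 4.81 and 4.91 with UNC2400, at the level of the median row, and was higher with UNC1999 (2.55-fold; limma, adjusted p = 0.0244). CD38 was lost without UNC1999 replicate 1 or any of the UNC2400 arrays (up to 0.0861). The falls included SLAMF7 (5.43-fold), TXNDC5 (3.04-fold) and TNFRSF17 (2.07-fold), so that MYC fell together with the marker genes of the cell type. The summed log2 value of the 11 markers was 94.2 to 95.3 with UNC2400 and 81.9 to 84.1 with UNC1999. Their part in the fall of MYC was not tested. INA-6 is a single line, and in bulk RNA a fall in all of its cells and a fall in part of them cannot be told apart. Of 25 markers of T cells, monocytes, stromal cells and erythroid cells, 1 passed, namely CD3E (1.24-fold higher; limma, adjusted p = 0.00805). By their mean over all arrays, 5 of 8 T cell, 2 of 8 monocyte, 4 of 6 stromal and 3 of 3 erythroid markers were above the median row. A place above that row therefore does not tell plasma cell markers from the others. The summed values of the 8 T cell markers were 39.9 to 40.3 with UNC2400 and 40.5 to 40.6 with UNC1999, and those of the 8 monocyte markers 38.9 to 39.3 and 39.1 to 39.3.

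Array medians lay between 4.83 and 4.86. Arrays of a group correlated at 0.994 to 0.998 across rows and arrays of different groups at 0.985 to 0.988. In all 6154 rows passed, 3273 higher and 2881 lower, or 9.39%. UNC1999 replicate 3 stood apart on the second principal component, with 13.3% of the variance and a score of -19.0 against 12.4 and 7.13 for replicates 1 and 2.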

How the data were processed

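The deposited table held log2 expression values, 65529 rows on 6 Affymetrix arrays, made by the authors with GeneSpring 13. Summarisation, normalization and build: not given in the sources used here. Row identifiers look like junction names, and each row was taken as 1 transcript cluster. Gene names came from the platform's probe annotation (23129 rows with 1 symbol, 1221 with several, 41179 with none), updated through RefSeq, and the highest-mean row stood for a gene. Values were fitted with limma 3.58.1 (R 4.3.3), lmFit and eBayes over all rows, two-sided, group as the only term, adjusted by Benjamini-Hochberg, threshold 0.05. Alternatives were a replicate block, quantile and cyclic loess normalization, leaving out dim rows, eBayes with trend and robust, the thresholds of the study, and each array left out. The fit was also run on simulated arrays. With each row's own SD as the spread, fewer changed rows were recovered than the limit set for this check. A spread moderated by limma was added after that, and the limit was applied to this second version only. There is no read depth for arrays, and how many there are limits the precision.

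The network genes and the 15 other lists, written from textbook knowledge, were chosen with earlier results of these data known. No list was tested as a set. All network genes are named. Of the other lists, up to 3 members per direction with the smallest p among those that passed are named, and all members of lists of at most 4 genes, with the 5 genes nearest to MYC. The shared rows of PVT1 and MIR17HG fall outside this rule.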

Additional observations from a re-analysis of the deposited data

How the results depend on the processing

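The falls of MYC and MXI1 and the rise of the MXD4 row kept their direction and their side of the adjusted threshold under the 5 other fits and with each array left out. The log2 difference of MYC lay between -1.22 and -1.12 with 1 array left out and between -1.19 and -1.14 under the other fits. Network genes that passed numbered 3, between 2 and 3 with 1 array left out, and 1 at the study's own thresholds, where 1072 rows passed in place of 6154. With 1 array left out the count over all rows lay between 2914 (without UNC1999 replicate 2) and 6513 (without UNC1999 replicate 3), with 3559 without UNC1999 replicate 1 and 3674 without UNC2400 replicate 1. It was 6783 with quantile normalization and 6765 with dim rows left out. The count for the other lists together was 54, between 36 and 54 with 1 array left out. With quantile normalization 7 genes activated by MYC were higher in place of 2, with dim rows left out 5, and with trend and robust 1. Genes of MYC protein turnover that were higher went from 2 to 4 (quantile) and 1 (trend and robust), and E-box factors that were lower from 1 to 2 (quantile, loess and block) and 3 (dim rows left out). Each network gene had 1 row, so the planned mean over rows would give the same values for them and was not run. Of the other named genes, RING1 had 6 rows and POU2AF1 had 2, and their values are those of the highest-mean row alone.

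The labels number the replicates of both groups 1 to 3 without saying what a number shares. Deviations of equally numbered arrays correlated at 0.06, 0.10 and -0.01 (replicates 1, 2 and 3) over 32764 rows, and those of unequally numbered arrays at -0.09 to 0.04. Replicates 1 and 2 correlated best with their own number, and UNC2400 replicate 3 with UNC1999 replicate 1. With deviations from the means of only 3 arrays, the check cannot decide whether the numbers are pairs. The main fit did not take them as pairs, and the replicate block is given beside it. With the replicate block 4262 rows passed, 2162 of them higher in place of 3273, and 2 network genes. MYC kept -1.18 (limma, adjusted p = 0.00634) and MLXIP had an adjusted p of 0.0626. MYC-repressed genes that were higher went from 6 to 3, and neighbours of the MYC locus that were higher from 1 to 0.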
